A study of Mus musculus with 6 samples.

Results

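PIWI proteins are the germline branch of the Argonaute family, and the genes described here encode the 3 mouse PIWI proteins and 7 factors that make or assist their guide RNAs, the PIWI-interacting RNAs (piRNAs). The 10 genes were chosen by name (*Piwil1*, *Piwil2*, *Piwil4*, *Mov10l1*, *Pld6*, *Asz1*, *Pnldc1*, *Henmt1*, *Gtsf1* and *Mael*), and all 10 were found among the 54532 genes of the table. RNA-seq was performed on STRA8-positive (STRA8+) germ cells from mouse testes, in 3 control libraries with the genotype Cre and 3 libraries with the genotype *Srsf1* knockout, made by conditional knockout (cKO) of the splicing factor gene *Srsf1*. The labels give neither the Cre driver, the age of the mice, the way STRA8+ cells were sorted nor the number of animals behind a library, so the p-values below measure the spread between these libraries only. Between 14447887 and 17310353 fragments were counted per library.

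A piRNA is cut from a long single-stranded precursor RNA, loaded into a PIWI protein, trimmed at its 3′ end and methylated there. The mature complexes silence transposons in fetal prospermatogonia and, in pachytene spermatocytes and round spermatids, carry a large class of piRNAs from intergenic clusters. Much of this work takes place in germ granules next to mitochondria, where Tudor domain proteins hold PIWI proteins by methylated arginines.

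*Srsf1*, the targeted gene, had 84.7, 45.2 and 51.9 FPKM (fragments scaled to gene length and library size) in the control libraries and 5.08, 4.94 and 5.17 FPKM in the cKO libraries. *Stra8*, for which the cells are named, had 262, 222 and 250 FPKM in controls and 242, 313 and 262 FPKM in cKO libraries, and the groups overlapped. The control libraries also held genes of later germ cells. The summed level of 10 spermatid markers, led by *Tnp2*, *Prm1* and *Prm2*, ranged from 2583 to 8622 FPKM in control libraries, with the highest value in replicate 2, and from 8.61 to 10.4 FPKM in cKO libraries. The summed level of 10 pachytene spermatocyte markers ranged from 735 to 918 FPKM in controls and from 102 to 128 FPKM in cKO libraries. Somatic RNA was low in both groups. The 25 somatic markers summed to 61.9 to 69.1 FPKM in controls and 60.8 to 114 FPKM in cKO libraries, of which 8 Sertoli cell markers made up 91.0 FPKM in cKO replicate 1.

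Of the 10 genes, 5 were lower in the cKO libraries and none was higher at an adjusted p of at most 0.05 (limma on log2(FPKM + 1), Benjamini-Hochberg adjustment over 15451 genes). Over all genes tested, 22.2% were lower and 11.8% were higher, with a median log2 fold change of -0.01. The lower genes were *Piwil1*, *Piwil2*, *Mov10l1*, *Gtsf1* and *Mael*, and in each of them all 3 cKO libraries lay below all 3 control libraries, as in 28.6% of the genes tested. With *Piwil4*, whose cKO libraries all lay above the controls, 6 of the 10 genes had groups that did not overlap, against 50.4% of the genes tested. The size of the change was very unequal. *Piwil1* kept 4.77% of its control level, *Gtsf1* kept 50.6%, *Mael* 73.9%, *Piwil2* 81.0% and *Mov10l1* 80.5%. The median log2 fold change of the 10 genes was -0.29. In these bulk libraries, fewer cells of a type and less RNA per cell cannot be told apart.

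**Figure D1:**
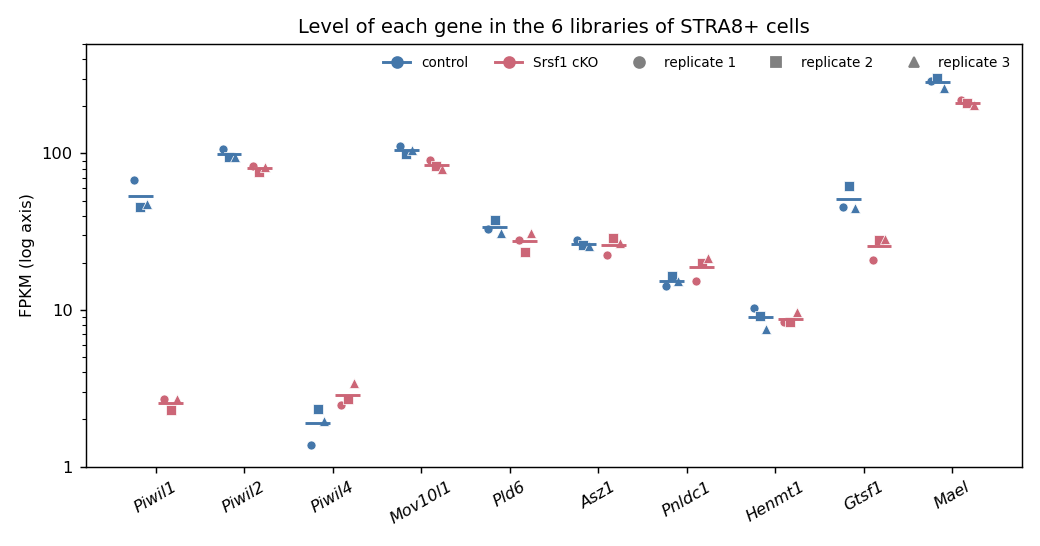
FPKM of the 10 genes (log axis) in the 3 control and 3 *Srsf1* cKO libraries. Each symbol is 1 library and each bar is the mean of its group. *Piwil1* is near 50 FPKM in controls and between 2.29 and 2.69 FPKM in cKO libraries, while the groups lie close together or overlap for the other 9 genes apart from *Gtsf1*.

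Promoter sequences were taken from RefSeq for GRCm38.p6, in which 8 of the 10 genes had an entry, all but *Piwil2* and *Pnldc1*. The 250 bases before the start are shown for 4 of the genes that were lower, since *Piwil1* differed from the others in the size of its change. Capitals mark AACTG or its reverse complement CAGTT, the core of the site of MYB-type factors, to which MYBL1 belongs, the factor known to activate pachytene piRNA loci. The windows are chr5:128735996-128736245 (plus strand) for *Piwil1*, chr1:166238745-166238994 (minus strand) for *Mael*, chr15:103430428-103430677 (minus strand) for *Gtsf1* and chr15:88982744-88982993 (plus strand) for *Mov10l1*, each written 5′ to 3′ along the gene. All 4 RefSeq starts lie inside the annotated span of their gene. The start of *Piwil1* lies furthest in, at position 128736246 of a gene annotated from 128702524.
Piwil1: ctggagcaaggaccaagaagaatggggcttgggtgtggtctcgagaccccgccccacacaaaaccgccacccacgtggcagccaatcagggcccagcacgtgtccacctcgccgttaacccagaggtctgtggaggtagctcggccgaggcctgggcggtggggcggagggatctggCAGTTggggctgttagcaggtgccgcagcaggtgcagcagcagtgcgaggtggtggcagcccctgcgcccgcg
Mael: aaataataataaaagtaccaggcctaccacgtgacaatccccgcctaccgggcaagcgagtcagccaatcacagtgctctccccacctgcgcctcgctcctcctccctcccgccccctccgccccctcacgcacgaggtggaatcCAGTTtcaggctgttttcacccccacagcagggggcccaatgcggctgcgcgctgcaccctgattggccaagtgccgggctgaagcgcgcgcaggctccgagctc
Gtsf1: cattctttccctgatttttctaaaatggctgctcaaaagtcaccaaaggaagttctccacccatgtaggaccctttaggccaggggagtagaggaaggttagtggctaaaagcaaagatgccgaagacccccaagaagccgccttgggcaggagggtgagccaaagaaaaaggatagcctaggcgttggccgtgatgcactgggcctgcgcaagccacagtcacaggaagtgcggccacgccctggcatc
Mov10l1: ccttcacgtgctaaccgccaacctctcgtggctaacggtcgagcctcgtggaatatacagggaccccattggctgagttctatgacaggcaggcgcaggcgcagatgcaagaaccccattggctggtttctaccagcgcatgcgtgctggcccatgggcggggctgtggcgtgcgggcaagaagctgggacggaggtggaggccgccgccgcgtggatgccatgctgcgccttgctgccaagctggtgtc
The core AACTG, on either strand, occurred in the windows of 3 of the 8 genes (*Piwil1*, *Mael* and a second start of *Piwil4*), which is 37.5% of them, against 42.6% of the 27025 genes with a promoter entry and 39.1% of the 32851 promoter windows of this length. The longer form AACTGNC, which contains the core, occurred in 1 of the 8 genes, in the *Piwil1* window shown above, where it begins 75 bases before the start on the opposite strand, against 12.1% of all genes and 10.6% of all windows. The motif was chosen after the values were known. A match describes letters only, not a bound site.

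*Piwil1* encodes MIWI, the PIWI protein of pachytene spermatocytes and round spermatids, which binds pachytene piRNAs and can cleave target RNA. The gene (ENSMUSG00000029423) spans positions 128702524 to 128755474 of chromosome 5 in GRCm38 (plus strand), and its longest protein-coding transcript in GENCODE M21 has 22 exons. It had 67.5, 45.7 and 47.5 FPKM in the control libraries, in replicate order, and 2.69, 2.29 and 2.69 FPKM after the knockout. The groups were far apart, and the highest control value was in replicate 1. The mean fell from 53.6 ± 12.1 to 2.55 ± 0.231 FPKM (SD, n = 3 libraries each; limma log2 fold change -3.92, standard error 0.16, adjusted p = 6.3e-06). Of the 15451 genes tested, 1.52% had a lower log2 fold change. The cKO values still rested on 146 to 184 fragments per library, so the gene was at a low level and not at the limit of detection. The part that pachytene and spermatid RNA in the control libraries plays in this difference was not tested.

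The 3 protein-coding genes whose profile over the 6 libraries lay closest to that of *Piwil1*, by the root mean square difference of centred log2(FPKM + 1), were *Cfap65* (0.07), *Ccdc38* (0.09) and *Slc2a3* (0.11). Their own log2 fold changes on this scale were -3.93, -3.95 and -4.12. Their means went from 17.5 to 0.202, 20.3 to 0.376 and 68.6 to 2.96 FPKM, against 53.6 to 2.55 FPKM for *Piwil1*. The 1 added to each FPKM thus understates the falls of *Cfap65* and *Ccdc38* more than that of *Piwil1*. For *Piwil2* the closest were *Chfr*, *Mark2* and *Csnk1a1*, at 0.03 each, and for *Piwil4* they were *D330020A13Rik* (0.03), *Tubb5* (0.04) and *Acsf2* (0.04).

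*Piwil2* encodes MILI, the PIWI protein present from fetal germ cells to round spermatids. It lies on the minus strand of chromosome 14, from 70372477 to 70429383. It had 106, 95.5 and 94.9 FPKM in control libraries and 82.9, 75.7 and 81.8 FPKM in cKO libraries, a narrow but complete separation. The log2 fold change was -0.30 (standard error 0.08, limma adjusted p = 0.022). The call rested on single libraries, since the adjusted p was 0.067 without control replicate 1, 0.057 without cKO replicate 2 and 0.062 without cKO replicate 3. It was 0.070 under quantile normalization, with a log2 fold change of -0.21.

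*Piwil4* encodes MIWI2, the nuclear PIWI protein of fetal prospermatogonia, which directs DNA methylation to transposons. It lies on the minus strand of chromosome 9, from 14696230 to 14740733. Its level was the lowest of the 10 genes in control libraries, at 1.38, 2.34 and 1.94 FPKM, against 2.48, 2.70 and 3.43 FPKM in cKO libraries. All 3 cKO values were above all 3 control values, as in 21.8% of the genes tested, but the difference did not pass the threshold (log2 fold change 0.43, standard error 0.17, limma adjusted p = 0.097). Quantile normalization, which moved the median of all genes from -0.01 to 0.21, gave a log2 fold change of 0.78 and an adjusted p of 0.0094. From 122 to 193 fragments per control library and 210 to 281 per cKO library lay behind these values.

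Within each library, the makeup of the summed PIWI mRNA differed between the groups. *Piwil1* made up 31.8% to 38.5% of the summed FPKM of the 3 genes in control libraries and 2.84% to 3.06% in cKO libraries. *Piwil2* made up 60.7% to 66.5% in control and 93.0% to 94.1% in cKO libraries. *Piwil4* made up 0.785% to 1.63% in control and 2.82% to 3.90% in cKO libraries, so that it stood level with *Piwil1* there. The sum of the 3 genes was 144 to 175 FPKM in controls and 80.6 to 88.1 FPKM in cKO libraries. A ratio of genes within a library does not depend on how libraries were scaled, apart from the 1 added, and 3 ratios were compared. The log2 ratio of *Piwil1* to *Piwil2*, with 1 added to each FPKM, was -0.89 ± 0.21 in control and -4.51 ± 0.03 in cKO libraries (SD, n = 3), a difference of -3.62 (exact permutation test, two-sided, p = 0.1, adjusted p = 0.15 over the 3 ratios). The log2 ratio of *Piwil4* to *Piwil2* was -5.13 ± 0.33 in control and -4.40 ± 0.18 in cKO libraries (exact permutation test, two-sided, p = 0.1, adjusted p = 0.15). In both ratios the groups were fully separated, and 0.1 is the smallest p that 3 libraries against 3 can give.

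**Figure D2:**
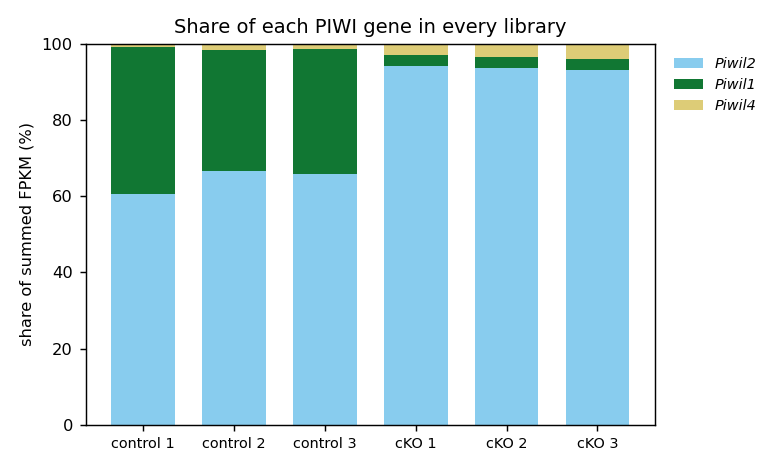
Share of *Piwil2*, *Piwil1* and *Piwil4* in the summed FPKM of the 3 PIWI genes (%), with 1 bar per library. *Piwil1* takes 31.8% to 38.5% of the bar in the control libraries and 2.84% to 3.06% in the cKO libraries.

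Of the 3 factors that process or anchor the precursor, 1 was lower. *Mov10l1* encodes the RNA helicase that binds piRNA precursors and feeds them to the nuclease, and lies on the plus strand of chromosome 15 (88982909 to 89055152). It had 112, 98.7 and 105 FPKM in control libraries and 91.3, 82.5 and 79.9 FPKM in cKO libraries, without overlap. The log2 fold change was -0.31 (standard error 0.08, limma adjusted p = 0.025), and the adjusted p rose to 0.051 without the intensity trend, 0.077 under quantile normalization, 0.082 without control replicate 1, 0.072 without control replicate 3, 0.065 without cKO replicate 2 and 0.096 without cKO replicate 3. *Pld6* encodes the nuclease of the mitochondrial outer membrane that cuts precursors, and lies on the minus strand of chromosome 11 (59783897 to 59787645). It had 33.1, 37.6 and 30.9 FPKM in control libraries and 28.2, 23.5 and 31.1 FPKM in cKO libraries. The highest cKO value of *Pld6* thus lay above the lowest control value (log2 fold change -0.29, 95% interval from -0.58 to -0.002, limma adjusted p = 0.11). Without 1 library the log2 fold change of *Pld6* ranged from -0.38 to -0.18. *Asz1* encodes GASZ, a scaffold protein anchored at mitochondria, and lies on the minus strand of chromosome 6 (18050964 to 18109061). It had 27.9, 26.2 and 25.6 FPKM in controls and 22.4, 29.0 and 27.0 FPKM in cKO libraries, with a log2 fold change of -0.03 (95% interval from -0.28 to 0.22, limma adjusted p = 0.83). A change in *Asz1* within these bounds could not be told from none, given the spread between its libraries.

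The enzymes that finish the piRNA 3′ end did not pass the threshold in either direction. *Pnldc1*, which encodes the exonuclease that trims the end, lies on the minus strand of chromosome 17 (12888729 to 12910230) and had 14.2, 16.4 and 15.3 FPKM in controls and 15.4, 19.8 and 21.5 FPKM in cKO libraries. cKO replicate 1 fell among the controls and the other two cKO libraries above them (log2 fold change 0.27, 95% interval from -0.04 to 0.58, limma adjusted p = 0.15). Without cKO replicate 1 the log2 fold change was 0.41 and the adjusted p 0.029, and quantile normalization gave 0.42 and 0.036. Leaving out any other library gave log2 fold changes from 0.18 to 0.32, with adjusted p from 0.15 to 0.39. *Henmt1*, which encodes the methyltransferase that then modifies the end, lies on the plus strand of chromosome 3 (108939873 to 108960774) and had 10.4, 9.15 and 7.61 FPKM in controls and 8.37, 8.32 and 9.64 FPKM in cKO libraries. Its groups overlapped fully (log2 fold change -0.03, 95% interval from -0.33 to 0.26, limma adjusted p = 0.86). The log2 ratio of *Pnldc1* to *Henmt1* was 0.71 ± 0.26 in control and 1.02 ± 0.19 in cKO libraries (SD, n = 3; exact permutation test, two-sided, p = 0.2, adjusted p = 0.2).

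Both cofactors of PIWI proteins were lower. *Gtsf1* encodes a small zinc finger protein that assists PIWI proteins in cutting their targets, and lies on the minus strand of chromosome 15 (103402405 to 103430470). It had 45.8, 62.2 and 44.5 FPKM in control libraries and 20.9, 28.0 and 28.2 FPKM in cKO libraries. The groups were well apart, and control replicate 2 was the highest. The mean fell from 50.8 ± 9.89 to 25.7 ± 4.15 FPKM (SD, n = 3; log2 fold change -0.95, standard error 0.17, limma adjusted p = 0.0050). *Mael* encodes maelstrom, which transposon silencing in the male germline requires, and lies on the minus strand of chromosome 1 (166201201 to 166238747). It had the highest level of the 10 genes in every library, with 291, 301 and 263 FPKM in controls and 220, 210 and 202 FPKM in cKO libraries. Its mean fell from 285 ± 19.7 to 211 ± 8.68 FPKM (SD, n = 3; log2 fold change -0.43, standard error 0.08, limma adjusted p = 0.0061). The calls of *Piwil1*, *Gtsf1* and *Mael* held in each fit that left out 1 library.

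By level, the order of the 10 genes in control libraries was *Mael*, *Mov10l1*, *Piwil2*, *Piwil1*, *Gtsf1*, *Pld6*, *Asz1*, *Pnldc1*, *Henmt1* and *Piwil4*. The ranges of neighbours over the 3 control libraries did not overlap, except for *Mov10l1* with *Piwil2* and *Piwil1* with *Gtsf1*. In cKO libraries *Piwil1* moved from rank 4 to rank 10, and *Mael*, *Mov10l1* and *Piwil2* stayed at ranks 1 to 3. There, the ranges of *Mov10l1* and *Piwil2* overlapped, as did those of *Pld6* and *Asz1*, *Asz1* and *Gtsf1*, *Gtsf1* and *Pnldc1*, and *Piwil4* and *Piwil1*. Every 100-base window of the 10 genes' transcripts was unique to its gene among annotated transcripts (100%). *Piwil1*, *Piwil4*, *Pnldc1* and *Henmt1* overlap an annotated gene on the opposite strand, and no source used here says whether strand was used in counting.

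The other genes of the pathway were described by lists. Of 36 such genes, 34 passed the filter of a mean of 1 FPKM, and 13 were lower and 2 higher, with a median log2 fold change of -0.10. Over all genes tested, 22.2% were lower and 11.8% higher, and the counts of each list below stand beside these shares. Among 9 Tudor domain partners, 5 were lower and none was higher. The largest fall was in *Tdrd6*, which encodes a large protein of the chromatoid body of spermatids. *Tdrd7*, which encodes another granule protein, and *Tdrd5* followed, and their order depended on the scale, since *Tdrd7* fell more on the log2(FPKM + 1) scale while *Tdrd5* kept less of its control mean (50.6% against 52.2%). *Tdrd6* had 27.1, 19.9 and 22.3 FPKM in controls and 0.324, 0.232 and 0.298 FPKM in cKO libraries (log2 fold change -4.22, standard error 0.13, limma adjusted p = 2.8e-06). *Tdrd7* had 44.7, 37.7 and 41.2 FPKM in controls and 22.6, 20.7 and 21.2 FPKM in cKO libraries (log2 fold change -0.90, limma adjusted p = 2.4e-04). The other lower genes were *Tdrd5* (-0.88), *Tdrd12* (-0.42) and *Tdrd1* (-0.33), named after their values were seen. *Tdrkh*, which tethers PIWI proteins to mitochondria for trimming, had a log2 fold change of 0.18 and did not pass the threshold, nor did *Tdrd9*, *Rnf17* or *Stk31*.

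Of 6 other cytoplasmic factors, 3 were lower, against 22.2% of all genes tested. *Exd1*, which encodes a partner of TDRD12, had a log2 fold change of -0.76 (limma adjusted p = 0.0050). *Gpat2*, which encodes a mitochondrial acyltransferase needed for piRNA production, had a log2 fold change of -0.47 (limma adjusted p = 0.035), and its lowest control value was 113 FPKM against a highest cKO value of 109 FPKM. *Ddx4*, which encodes the germ cell helicase VASA, had 169, 153 and 157 FPKM in controls and 130, 145 and 129 FPKM in cKO libraries (log2 fold change -0.24, limma adjusted p = 0.048). *Fkbp6*, which encodes a co-chaperone for piRNA loading, had a log2 fold change of 0.21 and did not pass the threshold (limma adjusted p = 0.058), although its groups did not overlap. The calls of *Ddx4*, *Gpat2*, *Tdrd1* and *Tdrd12* were each lost in 9 to 11 of 16 alternative settings. The *Ddx4* call was lost on leaving out any library but cKO replicate 2 (adjusted p up to 0.16), that of *Gpat2* any but control replicate 2 (up to 0.11), that of *Tdrd12* any but control replicate 3 (up to 0.092) and that of *Tdrd1* any but control replicate 3 and cKO replicate 3 (up to 0.099).

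Among the nuclear silencing factors, 3 of 5 genes passed the filter and none passed the test. These were *Tex15*, *Spocd1* and *Morc1*, with log2 fold changes of 0.13, -0.004 and 0.17. *Dnmt3l* and *Dnmt3c*, which act in fetal prospermatogonia, had mean levels between 0.254 and 0.314 FPKM in both groups. Among the factors that drive or mark pachytene piRNA loci, *Mybl1* had 20.3, 14.9 and 22.0 FPKM in controls and 17.6, 23.7 and 16.4 FPKM in cKO libraries, and the groups overlapped (log2 fold change 0.01, 95% interval from -0.42 to 0.45, limma adjusted p = 0.96). *Tcfl5*, which encodes a basic helix-loop-helix factor of spermatocytes, had 51.7, 53.4 and 44.3 FPKM in controls and 27.5, 31.0 and 29.2 FPKM in cKO libraries (log2 fold change -0.75, standard error 0.09, limma adjusted p = 0.0010). *Btbd18*, which encodes a nuclear protein needed at a subset of these loci, was higher, at 25.8, 23.8 and 25.6 FPKM in controls and 32.2, 30.2 and 30.3 FPKM in cKO libraries (log2 fold change 0.29, limma adjusted p = 0.016). The *Btbd18* call was lost in 4 of 16 alternative settings (limma adjusted p up to 0.068). Its adjusted p was 0.057 without cKO replicate 1 and 0.054 without cKO replicate 3.

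**Figure D3:**
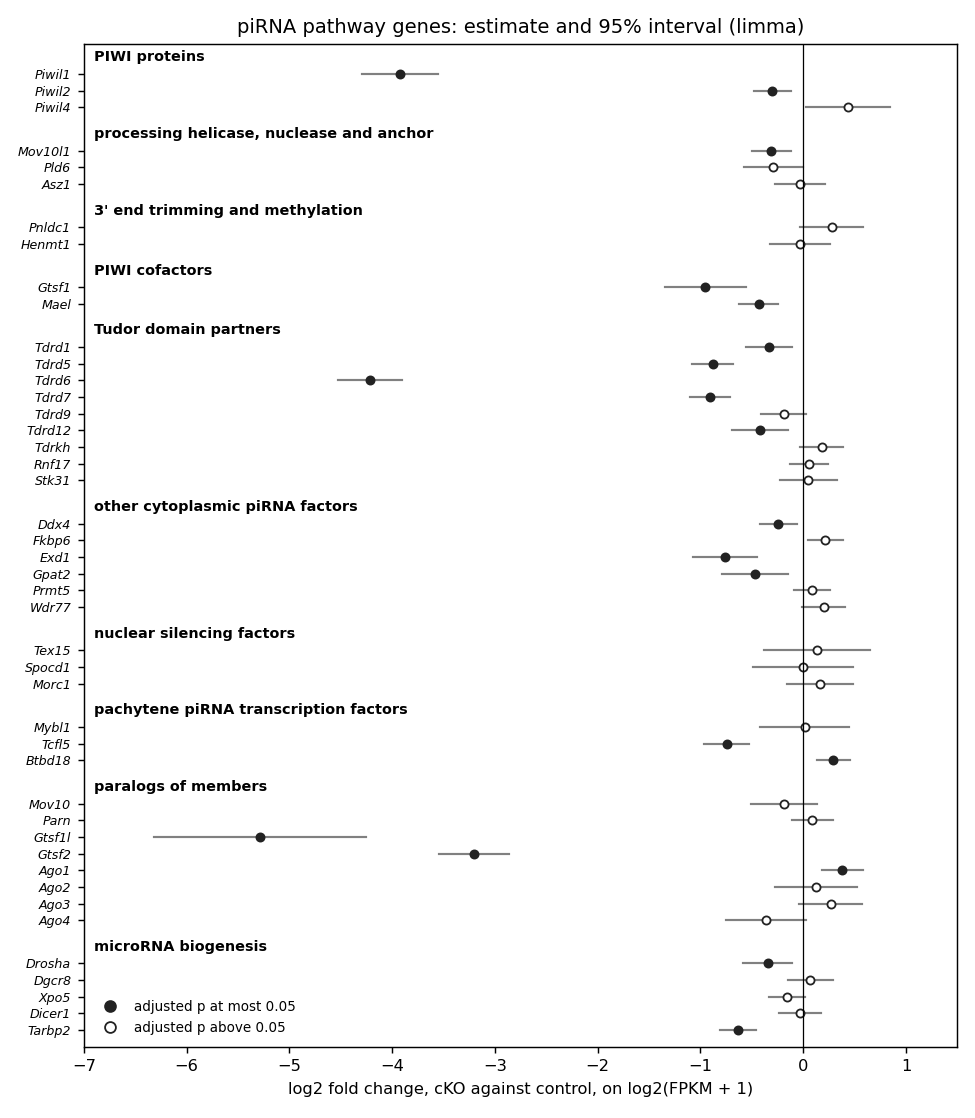
Log2 fold change of cKO against control libraries on the log2(FPKM + 1) scale for the 10 genes and the pathway lists, with 95% intervals from limma. Filled points have an adjusted p of at most 0.05. *Piwil1* (-3.92) and *Tdrd6* (-4.22) stand apart from the other piRNA factors, and *Gtsf1l* and *Gtsf2* from the other paralogs.

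Paralogs of the members gave a further comparison. Of 8 paralogs, 2 were lower and 1 was higher, against 22.2% and 11.8% of all genes tested. *Gtsf1l* and *Gtsf2*, the testis paralogs of *Gtsf1*, were at or near 0 in the cKO libraries. *Gtsf1l* had 32.2, 101 and 33.6 FPKM in control libraries, highest in replicate 2, and 0 to 6 fragments per cKO library. *Gtsf2* had 6.93, 8.24 and 9.66 FPKM in control libraries and no fragment in any cKO library. With 3 fragments per library as the floor, the lowest control value of *Gtsf2* was at least 24.9-fold higher than the cKO level. *Gtsf1* itself thus kept 50.6% of its control level while *Gtsf1l* kept 0.490%. The share of *Gtsf1l* was 0.829% without control replicate 2, 0.735% without cKO replicate 1 and 0.287% without cKO replicate 2. *Ago1*, which encodes a microRNA-binding Argonaute, was higher (10.8, 11.1 and 9.90 FPKM in controls against 15.0, 13.4 and 13.9 FPKM in cKO libraries). Its log2 fold change was 0.38 (limma adjusted p = 0.013), with an adjusted p of 0.0504 without control replicate 3. The *Ago1* call was lost in 3 of 16 alternative settings (adjusted p up to 0.053). *Ago2*, *Ago3*, *Ago4*, *Mov10* and *Parn*, the ubiquitous relative of *Pnldc1*, did not pass the threshold. Of 5 microRNA biogenesis genes, 2 were lower, against 22.2% of all genes tested. *Tarbp2*, which encodes a partner of Dicer, had a log2 fold change of -0.63 (limma adjusted p = 8.2e-04). That of *Drosha*, which encodes the nuclease that cuts primary microRNAs, was -0.35 (limma adjusted p = 0.037). The *Drosha* call was lost in 9 of 16 alternative settings, among them leaving out any library but control replicate 2 and cKO replicate 1 (adjusted p up to 0.11).

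Set beside germ cell stage markers, 9 of the 10 genes kept between 50.6% and 152% of the control level. The median of the markers kept 108% in undifferentiated spermatogonia (7 markers tested), 86.1% in early meiotic prophase, 111% in differentiating spermatogonia, 3.20% in pachytene spermatocytes and 0.106% in spermatids (0.188% without control replicate 2). Of the 10 early prophase markers 2 were lower, and all 10 pachytene and all 10 spermatid markers were lower, against 22.2% of all genes tested. The 4.77% kept by *Piwil1* lay between the pachytene markers *Ccna1* (5.79%) and *Acr* (0.618%), and the 1.23% kept by *Tdrd6* lay in the same gap. Both also lay within the spermatid markers, *Piwil1* between *Tssk6* (7.58%) and *Acrv1* (1.82%) and *Tdrd6* between *Gapdhs* (1.58%) and *Odf1* (0.107%). *Gtsf1*, at 50.6%, lay between the pachytene markers *Hspa2* (44.8%) and *Tbpl1* (61.8%). It also lay below 9 of the 10 early prophase markers, which kept 66.0% to 113%, and above *Spo11* (47.2%). Among the premeiotic markers, *Id4* (29.5%) and *Dmrtb1* (38.6%) kept less than *Gtsf1*. These percentages are ratios of group means and carry no test.

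**Figure D4:**
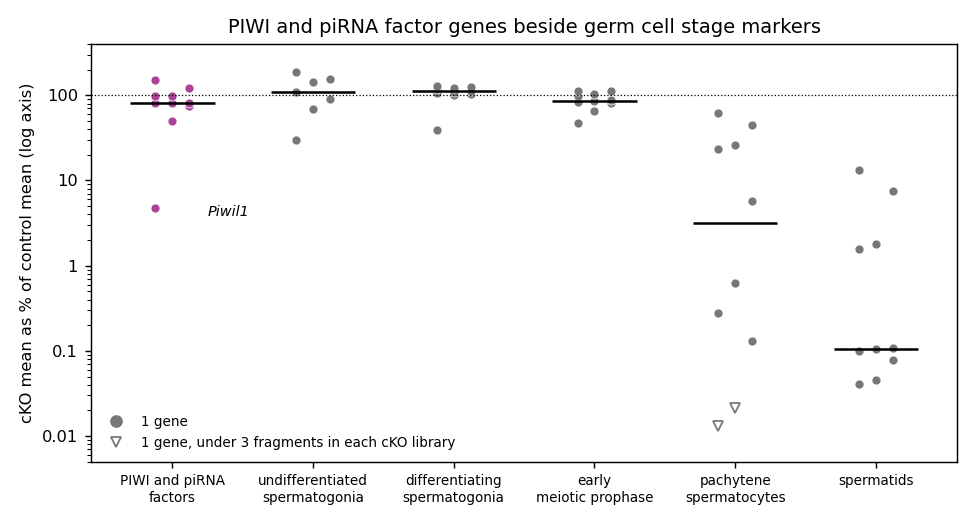
Mean FPKM of the cKO libraries as a percentage of the control mean (log axis) for the 10 genes and for tested markers of 5 germ cell stages. Each symbol is 1 gene, black bars are medians, the dotted line marks 100%, and open triangles have fewer than 3 fragments in each cKO library. *Piwil1* (4.77%) lies within the range of the pachytene markers and within that of the spermatid markers, and the other 9 genes lie near or above 50.6%.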

How the data were processed

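The authors deposited 1 table of FPKM for 54532 genes in 6 libraries. The submitters' processing notes name HISAT2 2.0.5 and mm10, and the counting tool is not given in the sources used here. Fragments per gene and library were recovered from FPKM times length, and 100% of the values above 0 came out whole (tolerance 0.05). The library size behind the FPKM was 0.971 to 0.999 times the recovered sum in control libraries and 0.993 to 1.05 times in cKO libraries. With FPKM recomputed from the recovered fragments, the log2 fold change was -0.25 for *Piwil2* and -0.26 for *Mov10l1* (limma adjusted p = 0.042 and 0.034). Log2(FPKM + 1) was fitted with limma 3.58.1 in R 4.3.3 (eBayes with intensity trend) for the 15451 genes averaging 1 FPKM or more, and p-values were adjusted by Benjamini-Hochberg (threshold 0.05). Fold changes on this scale understate the change of low genes. Ratios were tested with exact permutation tests (scipy 1.17.1). The fit was tested on simulated data. The 10 genes were given by name, and the other lists were written with earlier results of these data known. Named were all 10 genes, the called genes of each pathway list (beyond 4, the 2 largest falls and rises) and the 3 genes closest in profile to each PIWI gene. Alternatives were another pseudocount, filter, scaling or trend, a replicate block, a minimum fold change, limma-voom on the fragments and leaving out each library.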

Additional observations from a re-analysis of the deposited data

How the results depend on the processing

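Of 159 alternative estimates for the 10 genes, 140 kept their side of the threshold, 16 lost the call, 3 gained it and none that was called in either fit changed direction. *Asz1* and *Henmt1*, not called in any fit, had estimates of both signs. *Piwil1* ranged from -4.32 to -3.71 on the log2 scale, *Gtsf1* from -1.04 to -0.80 and *Mael* from -0.49 to -0.39, and *Srsf1* from -3.50 to -3.03 (-3.47 to -3.03 without 1 library).

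The 5 lower and 0 higher members became 3 and 2 under quantile normalization, where 16.4% of all genes tested were lower and 33.4% higher. With a minimum absolute log2 fold change of 1, 1 member stayed lower, against 12.5% of all genes tested. Leaving out 1 library gave 3 to 5 lower and 0 to 1 higher. In these fits 17.4% to 22.7% of all genes tested were lower and 6.27% to 11.4% higher. Over all genes, against 3437 lower and 1821 higher, 1950 of 8929 were lower among genes averaging 5 FPKM or more, which is 21.8% against 22.2% of the genes tested. Without a filter, 4361 of 35994 were lower (12.1%) and 1574 higher (4.37%, against 11.8%). There were 1939 lower and 177 higher with the minimum fold change, and 5164 higher and 2527 lower under quantile normalization, so that the share of higher calls went from 34.6% to 67.1%. The cause of the change under quantile normalization was not tested. Leaving out 1 library, which leaves fewer samples, gave 969 to 1767 higher genes. The log2 ratio of *Piwil1* to *Piwil2* was -4.02 with a pseudocount of 0.1 and -3.70 to -3.50 without 1 library.

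With the replicate number as a block, 3 members were lower (*Piwil2* and *Mov10l1* lost the call, adjusted p = 0.061 and 0.054), and over all genes 2870 were lower (18.6%) and 891 higher (5.77%). The labels do not say whether the numbers pair the libraries. In deviations from the group means, same-numbered libraries had correlations from -0.11 to 0.02, and 1 of 6 libraries correlated best with its own number. Deviations from a mean of 3 libraries depend on each other, so these values cannot settle whether libraries were paired.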
